A study of Mus musculus with 7 samples.

Results

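The low but covered bins of the zygote H3K4me1 profile were the 100 kb stretches of the mouse autosomes that carried some fragments, but at most 0.5 times the autosomal mean. Fragments of 14 zygote libraries were pooled, and each fragment was placed by its midpoint. A bin was taken when it held at least 10 midpoints, stood at or below the limit of 28.1 fragments, and overlapped no gene whose symbol starts with Olfr or Vmn, the olfactory and vomeronasal receptor genes. This gave 2811 bins among 24046 autosomal bins, or 11.7%, with 281.1 Mb in all. Of the rest, 74 bins were empty, 107 held 1 to 9 fragments, 617 bins with 10 or more fragments overlapped a receptor gene, and 20437 were the other covered bins against which the low ones are set.

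Single mouse zygotes were profiled with a method that pairs CUT&Tag of one histone mark with the RNA of the same cell. In CUT&Tag an antibody brings the Tn5 transposase to the mark, and the fragments it cuts are sequenced. The labels list 7 samples, of which 2 carry the H3K4me1 antibody, 2 hold the RNA made with those, 2 carry the H3K27me3 antibody, and 1 holds the RNA made with the H3K27me3 samples. The values given come from the H3K4me1 zygotes alone, and the other samples were not analysed here. The mothers of the zygotes had received 5 IU of pregnant mare serum gonadotropin and then, after 46 to 48 h, 5 IU of human chorionic gonadotropin, and zygotes were taken at 23 after that injection, a number given without a unit. The zygotes had no other treatment, no mutation is named, and each of both batches came from 1 mouse. Strain and age are stated for the H3K27me3 samples and their RNA (females of 6 weeks, B6D2F1/J, mated with C57BL6/J males of 3 to 6 months) and not for the H3K4me1 zygotes.

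Both H3K4me1 batches are pooled in 1 deposited table of fragments. Library names in it carry a 4 or a 5, which the labels tie to no batch, so the table counts as 1 sample, and the spread between mice cannot be given. Libraries are called by that number and their cell number, as in 5-4. The 14 libraries held 7106 to 197312 fragments with a median of 96240, of which 1350664 fragments in all lay on autosomes, or 56.2 per 100 kb. Level means fragments over those expected at the autosomal mean, which is 1. Intervals are exact 95% intervals and cover counting error alone. Of 1424363 lines in the table, 5 repeat the position and library of another. Without molecular identifiers, the remaining fragments need not all be separate molecules. No library without antibody was used here, so a low level is a low count of fragments, and less of the mark and less readable DNA cannot be told apart by the level itself. Since the zygote's RNA was not used, the cell type on the label could not be checked against expressed markers.

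Monomethylation of lysine 4 on histone H3 is laid down by methyltransferases of the MLL family and is best known from enhancers and from the flanks of active promoters. Long stretches with few genes, called gene deserts, are in many cell types late to replicate and close to the nuclear lamina. Some of the longest mammalian genes lie in or beside deserts, many of them encoding adhesion proteins of neurons. Other gene-poor or tissue-restricted chromatin holds clusters of copied genes for bitter taste, natural killer cell receptors, placental hormones, gut defensins or urinary proteins. After fertilization both parental genomes are repackaged while most of the genome's histone marks are rebuilt.

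The promoters inside the low but covered bins ranged from dense in CG pairs to free of them. Shown for 6 of them are the 250 bases before a start of transcription, as RefSeq gives them for GRCm38.p6 (mm10), with each CG pair, the site of DNA methylation, in capitals. The genes were picked after their values were seen. The first 3 belong to adhesion genes of neurons. Pcdh17 encodes a protocadherin and its stretch is chr14:84443313-84443562 on the plus strand. Flrt2 encodes a leucine-rich transmembrane protein of axon guidance and its stretch is chr12:95691976-95692225 on the plus strand. The gene itself starts at 95692006, so most of this stretch lies inside it, before a later start. Cadm2 encodes a synaptic adhesion protein of the immunoglobulin family and its stretch is chr16:67620909-67621158 on the minus strand. This stretch reaches a few bases into the gene, whose outer border is at 67620917.
Pcdh17: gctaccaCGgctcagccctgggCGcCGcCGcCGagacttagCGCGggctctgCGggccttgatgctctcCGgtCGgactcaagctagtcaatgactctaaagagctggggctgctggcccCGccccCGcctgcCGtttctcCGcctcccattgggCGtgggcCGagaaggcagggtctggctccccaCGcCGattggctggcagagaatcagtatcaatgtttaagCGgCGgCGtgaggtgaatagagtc
Flrt2: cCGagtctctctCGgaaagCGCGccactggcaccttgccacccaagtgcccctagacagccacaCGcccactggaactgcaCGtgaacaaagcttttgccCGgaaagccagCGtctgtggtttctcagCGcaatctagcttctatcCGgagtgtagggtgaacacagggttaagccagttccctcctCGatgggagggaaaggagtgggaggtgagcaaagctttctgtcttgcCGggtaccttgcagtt
Cadm2: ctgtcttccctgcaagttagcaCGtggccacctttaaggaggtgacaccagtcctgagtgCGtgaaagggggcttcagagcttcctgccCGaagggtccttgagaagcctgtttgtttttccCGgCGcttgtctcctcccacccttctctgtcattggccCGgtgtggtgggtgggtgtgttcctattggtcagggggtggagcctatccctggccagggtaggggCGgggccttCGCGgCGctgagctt
These windows held 21 CG pairs at Pcdh17, 12 at Flrt2 and 10 at Cadm2. The bin around the start held 21 fragments at Pcdh17, 27 at Flrt2 and 22 at Cadm2.

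The other 3 promoters belong to clusters of copied genes. Prl3b1 encodes a placental lactogen and its stretch is chr13:27242180-27242429 on the plus strand. Skint9 belongs to the Skint genes of the skin and thymus, and its stretch is chr4:112433986-112434235 on the minus strand. Tas2r109 encodes a bitter taste receptor and its stretch is chr6:132980966-132981215 on the minus strand.
Prl3b1: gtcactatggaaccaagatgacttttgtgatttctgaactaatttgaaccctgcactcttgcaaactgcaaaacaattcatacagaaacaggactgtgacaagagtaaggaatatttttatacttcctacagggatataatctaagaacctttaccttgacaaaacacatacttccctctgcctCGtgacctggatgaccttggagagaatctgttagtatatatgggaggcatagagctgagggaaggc
Skint9: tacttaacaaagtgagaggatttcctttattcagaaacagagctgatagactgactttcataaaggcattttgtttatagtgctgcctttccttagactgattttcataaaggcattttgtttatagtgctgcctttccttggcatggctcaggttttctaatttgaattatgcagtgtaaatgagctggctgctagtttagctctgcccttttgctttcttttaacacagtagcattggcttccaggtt
Tas2r109: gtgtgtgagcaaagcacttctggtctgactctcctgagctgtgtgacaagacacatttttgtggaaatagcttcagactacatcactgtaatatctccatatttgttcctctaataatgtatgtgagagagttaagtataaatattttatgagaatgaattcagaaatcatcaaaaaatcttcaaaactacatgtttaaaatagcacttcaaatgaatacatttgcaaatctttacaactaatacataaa
Upstream of the start there was 1 CG pair at Prl3b1, and there were 0 at Skint9 and 0 at Tas2r109. Their bins held 25 fragments at Prl3b1, 20 at Skint9 and 20 at Tas2r109. The rule itself holds all 6 counts between 10 and 28.

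Over all promoters the table gave, low bins are first set against other covered bins, and then groups within the low bins against each other. RefSeq windows of 300 bases, from 250 bases before the start to 50 after it, were found for 16457 of 20665 autosomal protein-coding genes. In the low but covered bins 531 promoters of 464 genes had a median of 3 CG pairs and a GC share of 46.3%, against 16 CG pairs and 58.3% for 17787 promoters in other covered bins. CG-rich promoters, with a GC share of at least 50% and at least 0.6 times the CG pairs expected from their shares of C and G, made up 15.4% (95% interval 12.5% to 18.8%) in the low bins and 51.3% (50.6% to 52.1%) in the others. Cadm2, shown above, is not CG-rich by this rule, with 0.512 times the CG pairs expected. Windows with no CG pair made up 9.98% in the low bins and 2.31% in the others. Within the low bins, 12 promoters of 11 genes on the list of neuronal adhesion and synapse genes had a median of 11.5 CG pairs, with 3 to 29, and 5 were CG-rich. By contrast, 81 promoters of the Prl, Skint, Defa, Tas2r, Scgb, Klr and Mup families had a median of 2, with 0 to 5, and 0 were CG-rich. The part of base composition in the fragment counts was not tested.

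The bins were chosen by their pooled fragment count, so the level is given as a description. The low but covered bins held 64144 fragments, 4.75% of those on autosomes, at a pooled level of 0.406. Single bins held 10 to 28 fragments with a median of 24, or levels of 0.178 to 0.498 with a median of 0.427, against a median level of 1.01 in other covered bins. At the edges, 17 bins stood at 10 fragments and 300 at 28, while 330 bins with 29, a level of 0.516, fell just outside, as did 8 with 9. The fragments of a bin came from 5 to 14 libraries, with a median of 10, and in 2 bins 1 library gave at least 50% of them.

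**Figure D1:**
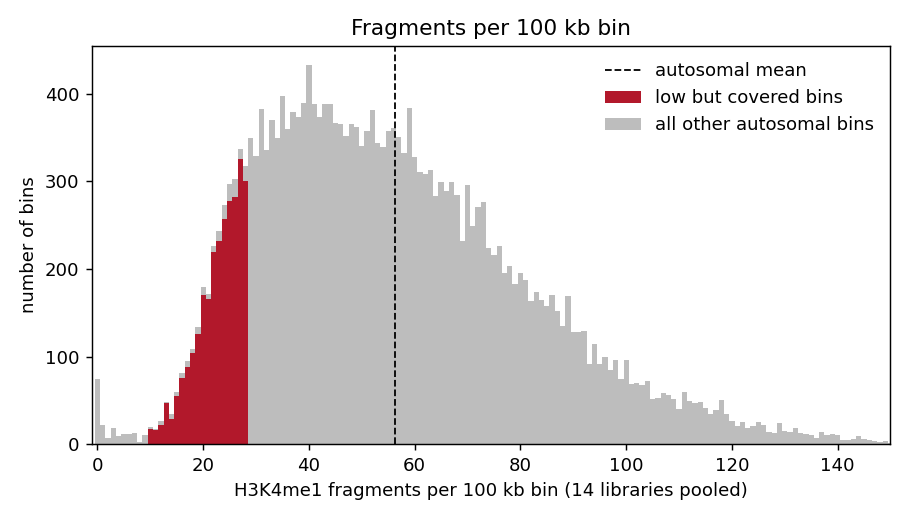
Number of autosomal 100 kb bins (vertical axis) by their pooled H3K4me1 fragments (horizontal axis, drawn to 150 fragments), with the low but covered bins in red, all other autosomal bins stacked in grey and the autosomal mean of 56.2 as a dashed line. The low but covered bins are the lower shoulder of 1 continuous distribution, between 10 and 28 fragments, and a separate spike stands at 0.

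The low level was also present in libraries that took no part in the choice. For each library, bins were chosen in the other 13 by the same relative limit, with the minimum of fragments scaled to their depth, and then measured in the library left out. The low bins then stood at a pooled level of 0.488 (0.485 to 0.492), against 1.08 in other covered bins. Over the libraries the level of the low bins ran from 0.418 in library 5-7 through a median of 0.490 to 0.562 in library 5-9, against 1.07 to 1.09 in the other bins. All 14 intervals lay below 1, and the 2 sets of values did not overlap. When the library measured also took part in the choice, its level was 0.354 to 0.475, with a median of 0.410, so that choosing and measuring in the same fragments lowered the values. In the 2 libraries under 5000 fragments, which the choice never used, 50 of 710 autosomal fragments fell in the low bins, against 83.1 expected, a level of 0.602 (0.447 to 0.794).

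**Figure D2:**
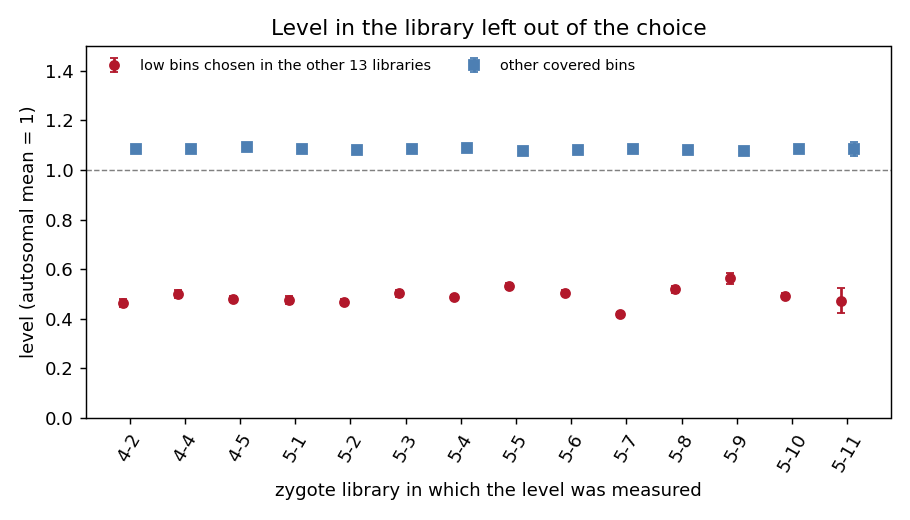
H3K4me1 level (vertical axis, autosomal mean = 1) in each of 14 zygote libraries (horizontal axis), for low bins chosen in the other 13 libraries (red circles) and for the other covered bins (blue squares), with exact 95% Poisson intervals. The red values lie between 0.418 and 0.562, below the blue values in every library.

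Bins were also chosen in the libraries of one name and measured in those of the other. The relative limit was kept and the minimum was scaled to the depth, so that bins chosen in the libraries named 5 held 9 to 23 fragments there, and bins chosen in those named 4 held only 2 to 5. The choice in 4 is therefore a much coarser one, and the 2 directions are not compared. Bins chosen in the 11 libraries named 5 numbered 2898, and they stood at 0.494 (0.485 to 0.502) in the 3 libraries named 4. There 2759 of them, 95.2%, were below the mean, against 61.1% of all covered bins. Bins chosen in the libraries named 4 numbered 5315 and stood at 0.692 (0.689 to 0.696) in those named 5, with 4555 of them, 85.7%, below the mean against 53.4% of all covered bins. Of the bins chosen in 5, 2474 were among the 2811, which is 85.4% of that choice and 88.0% of the 2811. Of those chosen in 4, 1813 were among them, 34.1% of that choice and 64.5% of the 2811. The pool that chose the 2811 holds the libraries of both names, so these overlaps share fragments and follow in part from the choice. The fragments expected per bin at the mean were 10.0 in the libraries named 4 and 46.2 in those named 5.

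Low but covered bins lay on every autosome, in unequal shares. They made up 12.1% of covered bins outside the receptor clusters overall. The share was 20.9% on chromosome 14 with 244 of 1168 bins, 16.3% on chromosome 12, 15.6% on chromosome 16 and 15.5% on both chromosomes 3 and 15. It was lowest on chromosome 9 at 5.89% with 69 of 1172 bins, then on chromosome 19 at 6.75% and on chromosome 11 at 6.82%. Chromosomes 11 and 19 were gene-rich, with 13.5 and 12.1 protein-coding genes per Mb, against 6.98 on chromosome 14 and 5.80 on chromosome 12, yet chromosome 18, with 5.83, had a share of only 8.34%. On the side of the centromere, 3.84% of low bins and 3.96% of other covered bins lay within 5 Mb of the first fragment, and 7.26% and 7.87% within 10 Mb. On the side of the telomere, 3.66% of low bins and 4.09% of the others lay within 5 Mb of the last fragment, and 5.16% and 8.37% within 10 Mb. Within 1 Mb of the last fragment the shares were 0.889% of low bins and 0.817% of the others.

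Low but covered bins held few protein-coding genes. No protein-coding gene overlapped 1983 of them, or 70.5% (68.8% to 72.2%), against 31.0% (30.4% to 31.7%) of other covered bins. None lay within 500 kb of 913 of them, 32.5%, against 4.24% of the others. Genes per bin averaged 0.390 in the low bins and 1.34 in the others, and the median number of genes in the bin or within 500 kb was 1 for the low bins and 7 for the others. Gene-free low bins lay a median of 442 kb from the nearest protein-coding gene, against 136 kb for gene-free bins of the other kind.

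Other gene types were not all scarce. Genes of long noncoding RNAs, which are untranslated transcripts, overlapped 17.1% of low bins and 44.9% of the others, and microRNA genes overlapped 0.925% of low bins and 3.99% of the others. Pseudogenes of any kind, which are disabled copies of genes, overlapped 25.6% of low bins and 27.4% of the others. Variable segments of antigen receptor genes overlapped 0.818% of low bins and 0.289% of the others. Protein-coding genes of 500 kb or more overlapped 10.9% of low bins and 8.42% of the others, while genes of 100 kb or less overlapped 12.3% of low bins and 42.0% of the others. Thus 42.1% of low bins and 11.8% of the others held no annotated gene of any kind.

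The share of low but covered bins fell stepwise with gene density. With 0 protein-coding genes in the bin or within 500 kb, 913 of 1779 covered bins were low, or 51.3%. With 1 gene 30.2% were low, with 2 to 4 genes 12.5%, with 5 to 9 genes 3.89%, with 10 to 19 genes 3.53%, and with 20 or more 2.42%. The pooled level over all covered bins of these classes climbed from the sparsest to the densest, through 0.527, 0.682, 0.853, 1.05, 1.23 and 1.45. Gene deserts and low bins overlapped in part. About as many covered desert bins, 866, were outside the low set as inside it, and 69 low bins had 20 or more genes nearby. The covered desert bins as a whole stood at 0.527, close to the limit of 0.5, where counting error puts some bins on both sides. Whether the levels of desert bins inside and outside the low set differ by more than counting error was not tested, so no kinds of desert are drawn from the split.

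**Figure D3:**
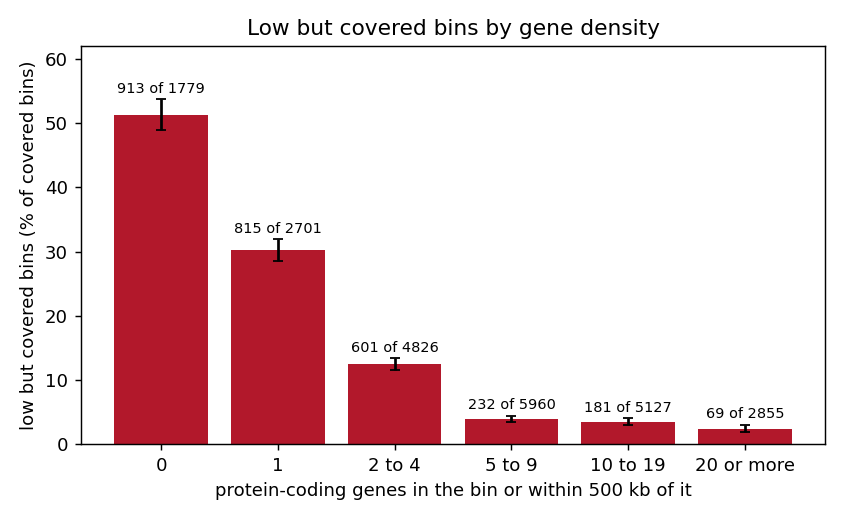
Share of covered 100 kb bins that were low but covered (vertical axis, %) by the number of protein-coding genes in the bin or within 500 kb of it (horizontal axis), with exact 95% Clopper-Pearson intervals and the counts above the bars. The bars step down from 51.3% with no gene to 2.42% with 20 or more.

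Many low but covered bins lay side by side. Among bins 100 kb from a low bin, 45.5% were low too, against 11.7% of all autosomal bins. How many would touch if they were scattered was not computed. Of the 2811, 1951, or 69.4%, touched another, in 570 runs of 2 or more, and 860 stood alone. Runs of 5 or more numbered 115 and held 785 bins, 27.9%. Just 10 runs reached 10 bins or more and covered 14.1 Mb together. Their levels, in the pool and in single libraries, come from the fragments that chose the bins and are given as a description.

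The longest run, chr14:94000001-96000000, had 20 bins and 430 fragments at a level of 0.383 (0.347 to 0.420). Its libraries ran from 0.211 in library 5-2 through a median of 0.339 to 0.696 in library 5-3. It lies between Pcdh9, which ends 107 kb before it, and Klhl1, an actin-binding kelch protein gene that starts 105 kb after it, and the only named protein-coding gene inside is the short Spertl of 1.53 kb. Next came chr12:94800001-96700000 with 19 bins and 389 fragments at 0.364 (0.329 to 0.402), with libraries from 0.231 through 0.363 to 0.553. This run holds the whole of Flrt2, whose promoter is shown above.

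Gene-free stretches made up several of the other long runs. The run chr17:76200001-77800000 had 348 fragments in 16 bins at 0.387 (0.347 to 0.430). The run chr14:89500001-90900000 had 281 fragments in 14 bins at 0.357 (0.317 to 0.401), with libraries from 0.114 in 5-1 through 0.369 to 0.625 in 5-9. Neither holds a named protein-coding gene. The runs chr10:14900001-16300000, chr6:74400001-75600000 and chr13:86600001-87800000 had levels of 0.403, 0.368 and 0.371. On chromosome 15, chr15:21600001-22800000 stood at 0.384 (0.339 to 0.434) with 259 fragments and takes in the first part of Cdh18, a cadherin gene of the brain, and the short gene Hnrnpa1l2-ps2.

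A pair of the 10 runs are gene clusters. The run chr4:112700001-113900000 stood at 0.332 (0.290 to 0.379) with 224 fragments in 12 bins and holds Skint10, Skint6 and most of Skint5. Its libraries ran from 0.0486 in 5-9 through 0.325 to 0.693 in 4-4. The run chr7:31500001-32500000 had the lowest level of the 10, 0.285 (0.242 to 0.332) with 160 fragments, and holds 10 secretoglobin genes, which in mice include androgen-binding proteins of the salivary and tear glands. Its libraries spread widely, from 0.0488 in 4-5 through 0.306 to 0.642 in 5-9. All 3 libraries named 4 were at 0.0924 or less, and among those named 5 the levels of 5-2 and 5-5 were 0.0938 and 0.142. The bin right after this run had 6 fragments, too few for the rule.

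The fall in level reached past the low but covered bins themselves. Bins 100 kb away stood at 0.551 (0.548 to 0.554) when all were counted, and 45.5% of them were low bins too. Counting only bins outside the set, the level was 0.678 (0.673 to 0.682) at 100 kb, 0.753 at 500 kb, 0.818 at 1000 kb and 0.895 at 2000 kb. At each distance measured, all 13 libraries with over 20000 fragments were below 1, and at 100 kb they ran from 0.608 to 0.763. Of the bins 2000 kb away, 23.2% were low but covered, against 11.7% of all autosomal bins.

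**Figure D4:**
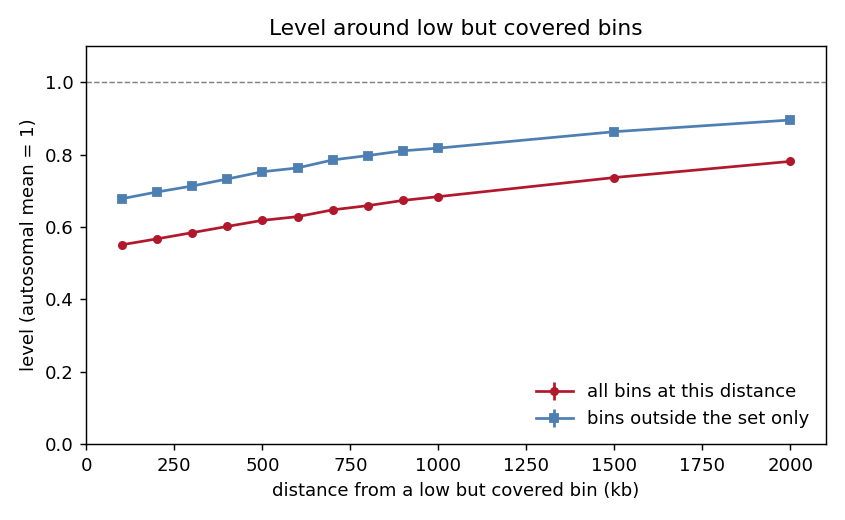
H3K4me1 level (vertical axis, autosomal mean = 1) of bins at 100 to 2000 kb from a low but covered bin (horizontal axis), for all bins at that distance (red circles) and for those outside the set only (blue squares), with exact 95% Poisson intervals that are smaller than the symbols. Both lines climb with distance and stay below 1, reaching 0.781 and 0.895 at 2000 kb.

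Few protein-coding genes lay in the low but covered bins. Among 20665 autosomal protein-coding genes, 759 touched a low bin, 551 had at least 50% of their bases inside, which was 2.67% and is called inside below, and 440 lay wholly inside. Gene models with names of the Gm, LOC or Rik kind made up 32.8% of genes inside and 7.22% of all genes. Genes inside had a median length of 13.6 kb, against 17.5 kb for all genes. The lists of genes described next were chosen with earlier results of these data known and support nothing about their direction.

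The 10 protein-coding genes with most bases inside were Lrp1b, Sgcz, Csmd3, Naaladl2, Ptprd, Lrrc4c, Cadm2, Robo2, Pcdh9 and Lsamp, which range from 879 to 2271 kb in length. Their levels over the whole gene with 2.5 kb on each side ran from 0.415 in Csmd3 to 0.633 in Lsamp. Csmd3, a membrane protein gene with CUB and sushi domains at chr15:47580638-48792558, had 912 kb of its 1212 kb inside and 284 fragments, a level of 0.415 (0.368 to 0.466). Over libraries it ran from 0.192 through a median of 0.393 to 0.677. Sgcz, the gene of zeta-sarcoglycan at chr8:37517840-38661705, had 290 fragments at 0.449 (0.399 to 0.504), with libraries from 0.297 through 0.456 to 0.727.

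Further genes of this kind had like values. Cadm2, at chr16:66655416-67620917, had 249 fragments at 0.456 (0.402 to 0.517) and libraries from 0.213 through 0.440 to 0.947. Lrrc4c, which encodes a postsynaptic partner of netrin-G, had 333 fragments at 0.449. Pcdh9, a protocadherin gene, had 213 fragments at 0.429 (0.373 to 0.490), and Cdh18 had 206 at 0.393 (0.341 to 0.450). Ptprd, a receptor phosphatase gene of synapses, and Robo2, the gene of a Slit receptor in axon guidance, had 709 and 529 fragments at 0.554 (0.514 to 0.597) and 0.603 (0.553 to 0.657), with smaller parts of the genes inside. These genes were named for their bases inside the low bins, so their low levels follow from the choice.

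On the list of 50 neuronal adhesion and synapse genes, 18 were inside the low bins, 36.0% against 2.67% of all protein-coding genes. A low bin was touched by 37, or 74.0%, against 3.67% of all genes and 38.0% of genes of 500 kb or more. Besides those named, the 18 include Dcc, the gene of a netrin receptor, Erbb4, the gene of a neuregulin receptor, and the cadherin genes Cdh9, Cdh10 and Cdh12. Their levels were 0.539 for Dcc, 0.497 for Erbb4, 0.386 for Cdh9, 0.457 for Cdh10 and 0.445 for Cdh12. The list's median level was 0.610, against 1.21 over all autosomal protein-coding genes, and the interval was below 1 in 44 of the 50, against 7.17% of all genes. Summed over the list, the level was 0.677, with libraries from 0.622 through 0.684 to 0.772, against 1.18 over all genes with libraries from 1.13 to 1.19. These ranges did not overlap. The list was chosen with earlier results known, and 18 of its genes lie in bins chosen in these same libraries, so the gap supports nothing.

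Not every gene of the list was low. Tenm4, a teneurin gene, stood at 1.49 (1.38 to 1.61), and Ntm, the gene of neurotrimin, at 1.13 (1.04 to 1.22), and neither touched a low bin. Length went with part of this pattern. Of 216 protein-coding genes of 500 kb or more, 20 were inside the low bins, 9.26%, and 82 touched one, 38.0%. A gene that spans many bins touches a low one more easily. Their median level was 0.871, and 118 of them, 54.6%, had an interval below 1, which a long gene reaches more easily since it holds more fragments. How much of the list's level is shared with gene length was not tested further.

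Lists of other genes had 0 or 1 gene inside each, which in lists this short cannot be told from the 2.67% of all protein-coding genes. Zscan4f of the zygotic list and Fshr of the granulosa list fell just short of inside, with 47.4% and 46.7% of their bases in low bins. Of 25 oocyte and maternal-effect genes 1 was inside, Oog1, and the list's median level was 1.41. Of 20 genes of zygotic genome activation 0 were inside, with a median of 1.01, and of 20 genes of cumulus and granulosa cells, which surround the egg, 0 were inside, with a median of 1.01. Of 15 spermatid genes 1 was inside, Acrv1, an acrosomal protein gene, with a median of 1.34 for the list. Of 18 housekeeping genes 0 were inside, with a median of 1.40.

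Clusters of copied genes were also inside. By symbol, 19 of 29 Prl genes were inside (65.5%), which encode prolactin and its relatives of the placenta, as were 7 of 11 Skint genes (63.6%), 17 of 29 Defa genes (58.6%), which encode the alpha-defensins of Paneth cells, and 19 of 35 Tas2r genes (54.3%). Lower shares were inside for the Scgb genes of secretoglobins, with 19 of 40 (47.5%), for the Klr genes of natural killer cell receptors, with 13 of 29 (44.8%), and for the Mup genes of major urinary proteins, with 7 of 24 (29.2%). Variable segments of antibody heavy chains, Ighv, were inside in 59 of 120 cases (49.2%), those of the T cell receptor, Trav, in 22 of 114 (19.3%) and those of the kappa light chain, Igkv, in 18 of 102 (17.6%). All of these were above 2.67%, the share among protein-coding genes, and neighbours in 1 cluster share a few bins.

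Other clustered families had no gene inside, which families of this size can also show at the 2.67% of all protein-coding genes. None of 38 H2- genes, 26 Ifn genes, 27 Klk genes, 22 Ugt genes, 15 Taar genes, 15 Ceacam genes, 13 Spink genes or 10 Gbp genes was inside, and the median level of these families ran from 0.724 for Spink and 0.765 for Gbp to 1.84 for Klk. Of large dispersed families, 11 of 391 Zfp genes (2.81%), 6 of 101 Cyp genes (5.94%) and 4 of 376 Slc genes (1.06%) were inside. Families were counted by the first letters of the symbol, so the 4 Slc genes include Slco1c1 of the Slco family. Within the protocadherins 4 of 67 were inside (5.97%), the separate genes Pcdh7, Pcdh9, Pcdh10 and Pcdh17, and within the cadherins 6 of 28 (21.4%), namely Cdh7, Cdh9, Cdh10, Cdh12, Cdh18 and Cdh19. Cdh7 and Cdh19, the lowest of those inside, stood at 0.265 (0.171 to 0.391) and 0.244 (0.130 to 0.418). The cadherins were not low as a family. The median level of the 28 genes was 1.20, against 1.21 over all protein-coding genes, and all bins with Cdh genes stood at 0.933 (0.906 to 0.961).

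Measured over every bin that holds a family's genes, low or not, the clusters differed in depth. Defa bins stood at 0.380 (0.325 to 0.442), with libraries from 0.205 through 0.367 to 0.608, and Skint bins at 0.414 (0.378 to 0.453), with libraries from 0.167 through 0.399 to 0.704. Mup, Scgb and Tas2r bins stood at 0.604, 0.613 and 0.615, Klr bins at 0.680 and Prl bins at 0.706 (0.659 to 0.755). These families were picked with their low bins in view. The bins of the list of neuronal genes stood at 0.675 (0.666 to 0.685), within the range of the clusters.

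The genes of lowest level in each cluster, which the naming took for that reason, held few fragments or none. Prl3b1 and Prl8a2 had 0 fragments, and 3 fragments would have given levels of 0.436 and 0.394 as the limit, and Klrc3, the gene of a natural killer cell lectin, had 0 with a limit of 0.436. Mup10 and Mup22 had 0 with a limit of 0.592 each, while Tas2r109, Tas2r116, Defa26, Defa-ps8 and Scgb1b10 had 0 with limits of 0.844 to 0.919, close to the autosomal mean. Not all short genes were low. Scgb2b7, a secretoglobin gene wholly inside, had 6 fragments at 1.53 (0.562 to 3.33), and the median level of all Scgb genes was 0.806. Longer genes carried more counts. Skint6 had 94 fragments over 482 kb at 0.343 (0.277 to 0.420), with libraries from 0 through 0.337 to 0.758, and Skint5 had 90 over 522 kb at 0.304 (0.245 to 0.374), with libraries from 0.0607 through 0.284 to 0.585. Genes of these families have near-identical copies, and how the authors placed reads that match several copies is not given in the sources used here, so single-gene values are uncertain.

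A few low but covered bins were dense with genes. The bin chr13:21800001-21900000 held 25 fragments, a level of 0.445, and 7 genes of replication-dependent histones, H2bc22, H2bc23, H2ac23, H4c17, H4c18, H2ac24 and H4bc24. The adjacent bins chr6:132700001-132800000 and chr6:132800001-132900000 held 6 and 5 Tas2r genes with 24 and 10 fragments. At chr6:129600001-129700000 the genes Klrk1, Klrc1, Klrc2, Klrc3 and Klri1 shared 24 fragments, and at chr8:21200001-21300000 there were 5 Defa genes with 17 fragments. In all, 2 or more protein-coding genes were found in 176 low bins, these included, which is 6.26% against 31.1% of other covered bins.

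Fragments were spread over most low but covered bins rather than absent from a part of them. Each bin was read in 10 steps of 10 kb. Of 28110 steps in the low bins, 14.2% (13.7% to 14.6%) were empty, against 10.1% if each bin's own fragments were spread evenly, and in other covered bins 1.92% were empty against 0.797%. No step was empty in 631 low bins, 1 in 1038 and 2 in 724, while 139 bins, 4.94%, had 4 or more empty steps. These 139 differed in annotation from the rest of the low bins. A pseudogene of any kind overlapped 42.4% of the 139 and 24.7% of the rest, a protein-coding gene model of the Gm, LOC or Rik kind overlapped 18.0% and 4.08%, and 59.7% and 71.1% held no protein-coding gene.

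Piles of fragments were rare. In 1175 low bins, 41.8%, no base was covered by more than 1 fragment of the same library, and in 2556, 90.9%, by no more than 2. The highest pile had 7. At least 50% of the fragments lay in 1 step in 20 bins, and in 3 bins all of them did.

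Among the gene families, the empty share differed. In the low bins of the Prl cluster 5.00% of steps were empty, against 9.38% if spread evenly, and in those of the neuronal list 12.4% against 9.40%. In low Mup, Tas2r and Scgb bins the empty shares were 33.3%, 23.3% and 23.3%, against 20.1%, 14.9% and 16.1% if spread evenly. These shares rest on few low bins, 8 for Prl, 6 for Mup, 6 for Tas2r and 12 for Scgb, against 164 for the neuronal list. No contrast between the families is drawn from them. The part of reads that match several copies in the empty steps was not tested.

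Fragments in low but covered bins were slightly longer than elsewhere. The median length was 334 bp in the low bins and 321 bp in other covered bins, and the share under 150 bp was 5.81% in the low bins and 8.56% in the others. In all 14 libraries the median was longer in the low bins, by 3 to 31.5 bp with a median of 12.5 bp, and in all 14 the share under 150 bp was lower. Library 5-11, the shallowest, gave the 31.5 bp, and without it the largest difference was 17 bp. In this kind of assay, fragments shorter than the DNA around a nucleosome can come from open chromatin. Openness was not measured here, and the cause of the difference in length was not tested.

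The difference in median length was smaller among gene-free bins. Among bins with no protein-coding gene the medians were 333 bp in the low bins and 325 bp in the others, longer in 12 of 14 libraries with differences from -1 to 37.5 bp. There the share under 150 bp was 5.87% in the low bins and 7.58% in the others, and it was lower in all 14 libraries. Among bins with none within 500 kb both medians were 334 bp, longer in the low bins in 7 of 14 libraries with differences from -16 to 57 bp. The share under 150 bp was 5.63% in the low bins and 6.40% in the others there. It was lower in the low bins in each library except 5-5 and 5-10. In deserts the low bins and the other covered bins were therefore not separated by median fragment length.

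**Figure D5:**
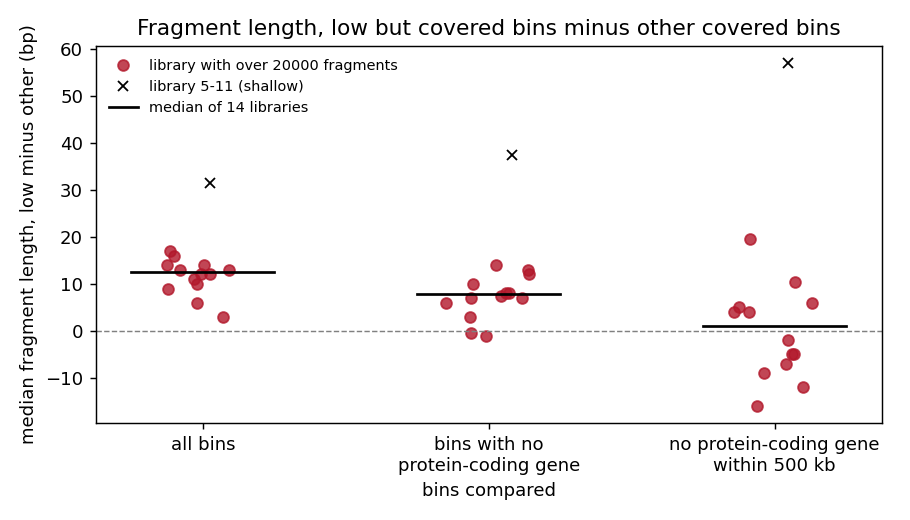
Difference in median H3K4me1 fragment length between low but covered bins and other covered bins (vertical axis, bp, low minus other) in each zygote library, for all bins, for bins with no protein-coding gene and for bins with none within 500 kb (horizontal axis). Circles are libraries with over 20000 fragments, the cross is library 5-11, and the line is the median of 14 libraries, which stands at 12.5, 7.75 and 1 bp.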

How the data were processed

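What was measured is the H3K4me1 CUT&Tag signal of single mouse zygotes, from both H3K4me1 samples. The deposited table lists 1 fragment per line with its position and library, and its last column is a count of 1 in every line, per the file itself. The submitters' processing notes name the build mm10, with no word on aligner, duplicate handling, placement of reads with several matches, filters or cut-site shift, each not given in the sources used here. Of 1424363 lines, 1404305 lay on chromosomes 1 to 19, X and Y in the 14 libraries that had 5000 or more there, and 2 shallower libraries were left out. The number of columns of values without a sample was 0.

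Midpoints were counted here in 100 kb bins with Python 3.11.15, numpy 2.4.6, pandas 2.3.3 and scipy 1.17.1, and figures were drawn with matplotlib 3.10.9. Chromosome spans run from the first to the last fragment. Genes came from RefSeq for GRCm38.p6, with 49943 genes, and a gene's level was taken with 2.5 kb on each side. Even spread within a bin was computed by the binomial formula. With 1 pooled table there was no test between samples, and no p-value, SD or count model was used. The scripts were tested on simulated data.

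The bins, the gene lists and the families were all chosen with earlier results of these data known. Genes were named by 3 rules, namely up to 3 named genes in each of the 10 longest runs, the 10 genes with most bases inside, and, in each listed family with 3 or more genes inside, the 2 of lowest level. Other genes named, the gene-dense bins, the promoters shown, the neuronal genes beyond these rules and the families measured over all their bins were picked once their values had been seen. The alternatives changed the limit, the minimum of fragments, the libraries, their weights, the bin borders and the placement of fragments. On the neuronal list, 1 gene is counted but not reported here by itself.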

Additional observations from a re-analysis of the deposited data

How the results depend on the processing

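No paired analysis was possible because both batches share 1 pooled table with no map from libraries to batches. The limit of 0.5 is a point on a continuous distribution. With a limit of 0.4 the low but covered bins numbered 1136, with a level in left-out libraries of 0.446, neighbours at 0.572, 19.7% empty steps and 48.6% in runs. With 0.6 there were 4486, at 0.532, with 68.1% free of protein-coding genes, neighbours at 0.769, 11.6% empty steps and 78.6% in runs. A minimum of 5 fragments gave a left-out level of 0.483 and 14.9% empty steps, and a minimum of 20 gave 0.510, neighbours at 0.625, 11.5% empty steps and 55.9% in runs. Libraries of at least 20000 fragments gave neighbours at 0.663, 14.8% empty steps and 67.5% in runs. Libraries named 5 alone gave a left-out level of 0.5, 19% empty steps and a median length of 329 bp. Equal weights gave 0.511, 68.7% free of genes, neighbours at 0.717, 12.9% empty steps, 337 bp and 65.0% in runs. Bins shifted by 50 kb gave neighbours at 0.672, and keeping receptor bins gave 67.0% free of genes. In alternatives added after the data were seen, counting low neighbours too gave 0.551, and leaving out bins with 4 or more empty steps gave neighbours at 0.661. Leaving out each library in turn gave 2426 to 2819 bins, left-out levels of 0.489 to 0.507, 69.3% to 71.2% free of genes, neighbours at 0.659 to 0.687, 14.8% to 18.3% empty steps, medians of 332 to 337 bp and 63.8% to 69.9% in runs. In none of these settings did the left-out level or the level of the neighbours reach 1. The causes of these shifts were not tested. At 56.2 fragments per bin on average, a single bin near the limit is set by a few fragments, and 7 of the low bins reach past the covered span of a chromosome.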

Other observations

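A narrow pile of fragments stood in the middle of one of the deserts. The bin right after the run chr14:89500001-90900000 held 179 fragments, a level of 3.18, and no annotated gene. Of these, 159 lay in the single 10 kb step chr14:90910001-90920000, a level of 28.3, from all 14 libraries, with up to 14 fragments of 1 library over the same base. The other 9 steps of the bin held 20 fragments, a level of 0.395, like the run beside them. Whether the sequence there is present in more copies than in the assembly was not tested.

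All fragments of a bin lay in 1 step of 10 kb in 3 low but covered bins. The bin chr8:129300001-129400000 held 27, all in its first step, and lies at the end of the chromosome's covered span. The bin chr13:119500001-119600000 held 13, all in its last step, with Tmem267. The bin chr14:69600001-69700000 held 19, all in its last step, with Loxl2, the gene of a lysyl oxidase, and R3hcc1.

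The choice set 3 kinds of bins aside, and their values partly follow from how they are defined. Receptor clusters at the same low level made up 164 bins with 3631 fragments, of which 4 touched a low but covered bin, and 16.8% of their steps were empty. The 107 bins with 1 to 9 fragments held 472 fragments, with 72.5% of steps empty and a pseudogene in 62.6%, and 43 of them touched a low but covered bin. Of the 74 bins with 0 fragments, 37.8% held no protein-coding gene.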
